A study of Sus scrofa with 8 samples.

Results

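The proteasome and the enzymes that attach and remove ubiquitin were followed through 36 genes, in T cells sorted from the colostrum and the blood of pigs. Every gene whose array symbol begins with PSMA to PSMG, UBE2, or USP and a digit was taken. This gave 36 of the 4560 genes with a symbol on the array: 19 proteasome genes, 4 E2 ubiquitin-conjugating enzymes (UBE2) and 13 ubiquitin-specific proteases (USP). All 36 passed the filter on dim probes, as did 3773 of the 4560 genes. Each gene was read from its brightest probe, chosen by its mean over all 8 samples. The samples were mononuclear cells of 2 Large White x Landrace sows, stained and sorted as CD3-positive cells. They either carried CD4 along with CD8 (double positive) or carried CD8 without CD4 (single positive). There were thus 4 groups of 2 samples, 1 from each sow: colostrum double positive, colostrum single positive, blood double positive and blood single positive cells. Colostrum is the first milk, and healthy pigs carry mature double positive T cells. No treatment or age of the sows is given in the sources used here.

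The study was set up to compare colostral with blood T cells in each population. All colostrum samples were labelled with Alexa Fluor 3 and all blood samples with Alexa Fluor 5, so a dye effect and a difference between colostrum and blood cannot be told apart there. Raw intensities had medians of 118 to 133 units in colostrum samples and 27 to 34 units in blood samples. The background differed too, since negative-control spots had medians of 68 to 81 units in colostrum and 1 to 8 units in blood samples. Between 135 and 232 probes were below 0 in colostrum samples, and between 7322 and 9738 in blood samples. The part of this background in the differences between colostrum and blood was not tested. Levels below are normalized log2 intensities of 1 probe, and they are compared between samples, not between genes. A sample counts as above background when the probe exceeds the 95th percentile of the negative-control spots, which lay at 6.78 to 7.05. By this measure 22 of the 36 genes were above background in all 8 samples. With 8 arrays and 2 sows, precision is limited by their number. In these bulk samples, fewer cells of a type and less RNA per cell cannot be told apart.

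The sort was checked on its markers. CD3D was at 11.42 to 12.43 in the colostrum samples and 11.69 to 12.08 in the blood samples. CD3E had a difference of colostrum minus blood of -0.37 ± 0.49 in double positive cells, and the chains CD247 and CD3G were further apart there. CD247 was at 9.40 and 8.49 in colostrum double positive cells, against 10.86 and 10.54 in blood double positive cells (difference -1.76 ± 0.64, adjusted p 0.508 in limma). CD3G was at 10.54 and 8.05 in colostrum double positive cells, against 10.74 and 11.32 in blood double positive cells (difference -1.74 ± 0.79, adjusted p 0.61). CD8B, the beta chain of CD8, was not above background in any double positive sample and was above it in all 4 single positive samples. CD8A, the alpha chain, was above background in all 8 samples. It was at 7.60 and 7.51 in colostrum double positive cells and at 8.04 and 7.21 in blood double positive cells. Its difference of double positive minus single positive cells was -1.01 in colostrum and -1.66 in blood. CD4 was at 7.81 and 6.90 in the colostrum double positive samples, against 8.68 and 8.77 in the blood double positive samples, and was not above background in any single positive sample. The sow 2 value of 6.90 in colostrum double positive cells was just under that sample's threshold of 6.96. Markers of other cells were uneven. None of 8 measured mammary and milk genes was above background in all 8 samples, but the casein gene CSN1S1 reached 11.38 in the colostrum single positive sample of sow 2, and was at 8.60, also above background, in the blood single positive sample of that sow. In the same colostrum sample CSN1S2 (6.10), CSN2 (6.18), LALBA (5.64) and EPCAM (6.13) were not above the threshold of 6.84. CSN3 (7.26), KRT8 (7.66) and MUC1 (7.16) were above it. The neutrophil gene S100A8 was at 9.05 and 8.43 in the blood double and single positive samples of sow 2, and S100A12 at 9.81 and 9.05. The other neutrophil genes, S100A9 and MPO, were above background in 0 blood samples, and in 2 and 1 colostrum samples. The mean level over 4 neutrophil genes was 6.13 to 6.94 in colostrum samples and 5.94 to 8.10 in blood samples. The platelet gene GP9 was lower in all 4 colostrum samples (7.69 to 8.51) than in the 4 blood samples (9.09 to 9.55). The mean level was 6.44 to 7.19 in colostrum and 6.25 to 6.89 in blood samples over the 8 mammary genes, and 6.15 to 6.97 and 6.15 to 7.20 over 3 monocyte genes. It was 6.80 to 10.13 and 6.63 to 8.77 over 2 NK cell genes, and the B cell gene CD79A was at 6.59 to 9.48 in colostrum and 6.31 to 8.82 in blood samples. The part of these cells in the results below was not tested.

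Proteins marked with chains of ubiquitin are degraded by the proteasome. An E1 enzyme activates ubiquitin, an E2 enzyme carries it, an E3 ligase passes it to the substrate, and deubiquitinases such as the USP proteins take it off again. The proteasome is a barrel of alpha and beta rings, the 20S core, capped by a 19S particle that binds, unfolds and feeds in the substrate. Lymphocytes and cells exposed to interferon replace the catalytic beta subunits by the immunoproteasome subunits PSMB8, PSMB9 and PSMB10, and can cap the core with the activator PSME1 and PSME2 instead. The immunoproteasome is known for making peptides that MHC class I presents. The roles given below are those known in human and mouse.

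None of the 36 genes passed the test in colostrum against blood, at a Benjamini-Hochberg adjusted p under 0.05 in limma. This was so in double positive cells (0 of 36, background 0% of 3773 genes) and in single positive cells (0 of 36, background 0%). The smallest adjusted p among the 36 was 0.447 for USP1 in double positive cells and 0.536 for PSMD4 in single positive cells. At an unadjusted p under 0.05, 7 of the 36 genes stood out in double positive cells, where 8.43% of all genes did. In single positive cells, 2 of the 36 did, against 7.69% of all genes. The account that follows therefore gives values and the way they lie, and no gene is called changed.

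Of the 19 proteasome genes, 12 had a lower mean in colostrum in double positive cells, where 54.9% of all genes did, and 14 in single positive cells, where 53.4% of all genes did. In double positive cells 15 of the 36 genes were lower in colostrum in both sows, against 32.0% of all genes, and 6 were higher in both, against 22.5%. In single positive cells 16 were lower in both sows, against 30.5% of all genes, and 9 were higher in both, against 24.8%. Some were apart in every sample: PSMA4, PSMB7, PSMB8, PSMB9, PSMD4 and PSME1 were lower in all 4 colostrum samples than in any blood sample (6 of 36, background 5.94%). PSMB3 and USP1 were higher in all 4 colostrum samples than in any blood sample (2 of 36, background 2.94%). The median difference of colostrum minus blood over the 36 genes was -0.17 in double positive and -0.18 in single positive cells, beside -0.09 and -0.06 over all genes tested. For the 19 proteasome genes it was -0.41 in double positive and -0.33 in single positive cells.

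**Figure D1:**
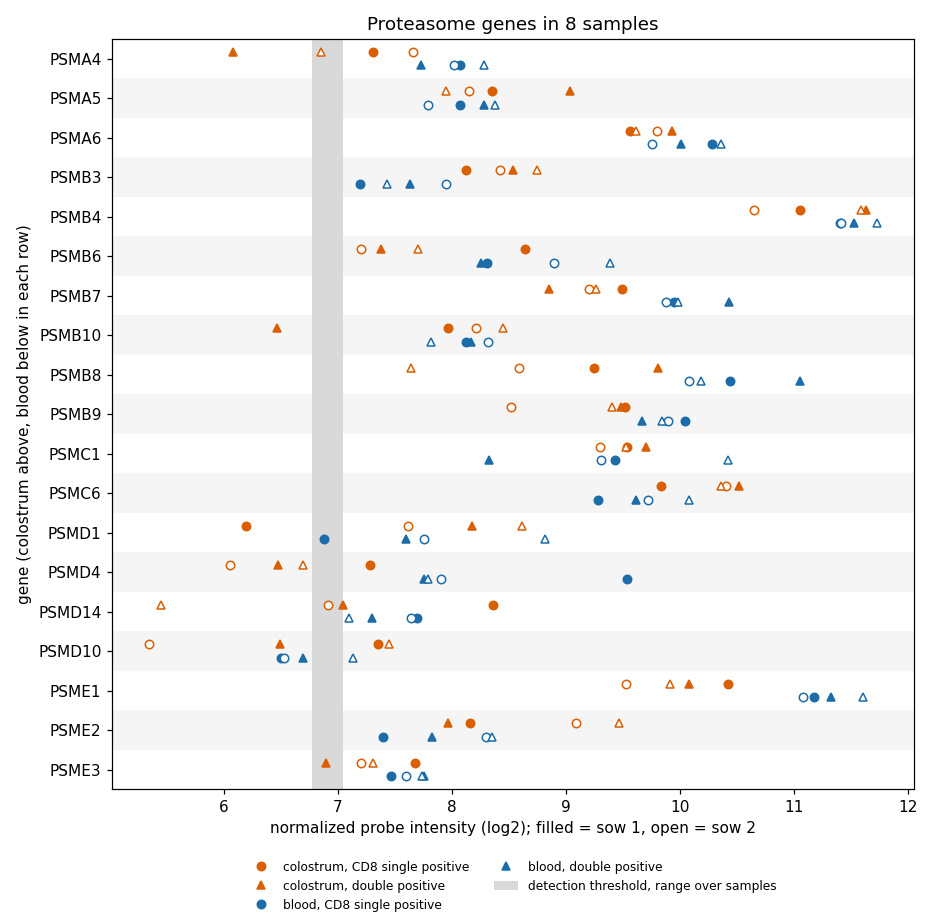
Normalized log2 intensity (horizontal axis) of the 19 proteasome genes in each of the 8 samples, colostrum in orange in the upper line of each row and blood in blue in the lower line; triangles are double positive and circles single positive cells, filled for sow 1 and open for sow 2, and the grey band is the range of the detection threshold over samples. The orange and blue symbols do not overlap for PSMA4, PSMB7, PSMB8, PSMB9, PSMD4 and PSME1, with colostrum lower, nor for PSMB3, with colostrum higher.

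The widest gap between the sources, of the 36 genes, belonged to PSME1, the alpha subunit of the PA28 activator. PSME1 was at 10.08 and 9.91 in colostrum double positive cells of sows 1 and 2 and at 10.42 and 9.53 in colostrum single positive cells. In blood it was at 11.32 and 11.60 in double positive cells and at 11.18 and 11.08 in single positive cells. The highest colostrum sample thus lay 0.65 below the lowest blood sample. The difference of colostrum minus blood was -1.47 ± 0.49 (SE) in double positive cells, 2.77-fold lower, with an adjusted p of 0.468. In single positive cells it was -1.15 ± 0.49, with an adjusted p of 0.631. A second PSME1 probe gave -1.55 in double positive and -1.03 in single positive cells, and it too was lower in every colostrum sample.

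The beta subunit of the same activator did not lie the same way. PSME2 was at 7.96 and 9.46 in colostrum double positive and 8.16 and 9.09 in colostrum single positive cells, against 7.82 and 8.35 in blood double positive and 7.40 and 8.30 in blood single positive cells. Its ranges in the 2 sources overlapped. The difference was 0.62 ± 0.65 in double positive and 0.78 ± 0.65 in single positive cells (adjusted p 0.853 and 0.845 in limma). Without the colostrum double positive sample of sow 2 the first of these was -0.12, and with each channel scaled to its 75th percentile it was -0.34. PSME2 has 1 probe on the array. PSME3, the nuclear activator PA28 gamma, had differences of -0.64 ± 0.47 in double positive and -0.10 ± 0.47 in single positive cells. In the RefSeq annotation (Sscrofa11.1) PSME1 and PSME2 lie next to each other with only EMC9 between them.

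Of the 3 immunoproteasome genes, PSMB8 and PSMB9 were apart between colostrum and blood and PSMB10 was not. PSMB8, the immune form of the chymotrypsin-like subunit, was at 9.81 and 7.64 in colostrum double positive and 9.24 and 8.59 in colostrum single positive cells. In blood it was at 11.05 and 10.18 in double positive and 10.44 and 10.08 in single positive cells. The SD was widest in colostrum double positive cells, 1.53 (n = 2), yet both values there were below every blood value. Its difference was -1.89 ± 0.72 in double positive cells (adjusted p 0.514) and -1.34 ± 0.72 in single positive cells (adjusted p 0.75). The double positive value was -0.81 without the colostrum double positive sample of sow 2 and -2.98 without that of sow 1. Both other PSMB8 probes were negative as well, at -2.13 and -1.06 in double positive and -1.30 and -0.63 in single positive cells. The first of these was also lower in every colostrum sample. The ranges of the other overlapped, at 7.42 to 9.15 in colostrum and 9.02 to 9.66 in blood samples.

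PSMB9, which replaces the caspase-like subunit, was at 9.48 and 9.41 in colostrum double positive and 9.52 and 8.52 in colostrum single positive cells, against 9.67 and 9.85 in blood double positive and 10.05 and 9.90 in blood single positive cells. The gap between the sources was narrow, 0.15. The difference was -0.31 ± 0.50 in double positive cells and -0.95 ± 0.50 in single positive cells (adjusted p 0.912 and 0.749). The single positive value was -0.45 without the colostrum single positive sample of sow 2 and -1.46 without that of sow 1. A second probe gave -0.32 and -0.58 and was also lower in every colostrum sample.

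PSMB10, which replaces the trypsin-like subunit, was at 6.47 and 8.45 in colostrum double positive and 7.97 and 8.22 in colostrum single positive cells, against 8.17 and 7.82 in blood double positive and 8.12 and 8.31 in blood single positive cells. Its sources overlapped, and the 6.47 of sow 1 was the only value not above background. The difference was -0.53 ± 0.65 in double positive cells, and 0.46 without that sample, and -0.13 ± 0.65 in single positive cells. The probes of PSMB10 disagreed. Of its other 2 probes, 1 gave 0.26 in double positive and 0.82 in single positive cells. That probe was above background in 3 colostrum and 2 blood samples, and not in both samples of either double positive group. The other gave -0.14 in double positive and -0.05 in single positive cells. Over the 3 immunoproteasome genes the median difference was -0.53 in double positive and -0.95 in single positive cells, the last of which was -0.45 without the colostrum single positive sample of sow 2. Over the 12 measured constitutive subunits of the 20S core and the 19S particle it was -0.22 and -0.37.

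Among the constitutive beta subunits, PSMB7, PSMB6 and PSMB3 are described by sample. PSMB5, the constitutive counterpart of PSMB8, was not analysed here. PSMB7, the constitutive trypsin-like subunit that PSMB10 replaces, was at 8.85 and 9.26 in colostrum double positive and 9.49 and 9.21 in colostrum single positive cells, against 10.43 and 9.98 in blood double positive and 9.95 and 9.88 in blood single positive cells. Its lowest blood sample was 0.38 above its highest colostrum sample. The difference was -1.15 ± 0.47 in double positive and -0.56 ± 0.47 in single positive cells (adjusted p 0.551 and 0.844). A second probe was also negative in both, at -0.25 and -0.61, but its ranges overlapped.

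PSMB6, the constitutive caspase-like subunit that PSMB9 replaces, was at 7.38 and 7.70 in colostrum double positive and 8.64 and 7.21 in colostrum single positive cells, against 8.26 and 9.39 in blood double positive and 8.31 and 8.89 in blood single positive cells. The single positive sample of sow 1 was the 1 colostrum value within the blood range. Its difference was -1.28 ± 0.63 in double positive and -0.68 ± 0.63 in single positive cells, the last of which was 0.04 without the colostrum single positive sample of sow 2. The probes of PSMB6 disagreed, since 1 of its 3 probes had differences of 0.44 in double positive and 0.74 in single positive cells.

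PSMB3, a beta subunit without catalytic activity, lay the other way from PSMB7. It was at 8.54 and 8.75 in colostrum double positive and 8.12 and 8.42 in colostrum single positive cells, against 7.63 and 7.43 in blood double positive and 7.20 and 7.95 in blood single positive cells. Every colostrum sample was above every blood sample, by at least 0.17. The difference was 1.11 ± 0.48 in double positive and 0.70 ± 0.48 in single positive cells (adjusted p 0.592 and 0.809), from the only probe of the gene. PSMB4, another non-catalytic beta subunit, had 10 probes. All 10 were negative in both populations, between -0.52 and -0.02 in double positive and between -0.61 and -0.19 in single positive cells, and 2 of the 10 were lower in every colostrum sample.

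In the alpha ring, which gates the barrel, PSMA4 was at 6.08 and 6.86 in colostrum double positive and 7.31 and 7.66 in colostrum single positive cells, against 7.73 and 8.28 in blood double positive and 8.07 and 8.02 in blood single positive cells. The 2 colostrum double positive values were not above background, so the probe was at least 2.12-fold lower there (adjusted p 0.45). In single positive cells its difference was -0.56 ± 0.50 (adjusted p 0.868). Of its other 2 probes, 1 gave -0.40 in double positive and -1.63 in single positive cells and was above background in no colostrum sample. The last gave -0.07 in double positive and 0.12 in single positive cells and was not above background in both samples of any group. PSMA6 had differences of -0.41 ± 0.47 in double positive and -0.33 ± 0.47 in single positive cells. PSMA5 had 0.16 ± 0.51 in double positive and 0.32 ± 0.51 in single positive cells, the last of which was -0.41 under 75th percentile scaling.

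The 19S particle was mixed. PSMD4, a ubiquitin receptor of its base, was at 6.48 and 6.70 in colostrum double positive and 7.28 and 6.06 in colostrum single positive cells, against 7.76 and 7.79 in blood double positive and 9.54 and 7.91 in blood single positive cells. Only 1 of the 4 colostrum samples was above background, and all 4 blood samples were. Its difference was -2.05 ± 0.65 in single positive cells, where 1 of the 2 colostrum samples was above background, and in double positive cells it was at least 1.80-fold lower (adjusted p 0.536 and 0.677). The single positive value was -1.24 without the blood sample of sow 1 and -1.44 without the colostrum sample of sow 2. A second, dimmer probe, above background in no blood sample, gave 0.87 in double positive and -0.40 in single positive cells, so the 2 probes of PSMD4 disagreed in double positive cells.

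Of the 2 measured ATPases that unfold substrates, PSMC6 was higher in colostrum in both sows and both populations, while PSMC1 was not higher in sow 2. PSMC6 was at 10.52 and 10.36 in colostrum double positive and 9.83 and 10.40 in colostrum single positive cells, against 9.62 and 10.07 in blood double positive and 9.28 and 9.72 in blood single positive cells. The difference was 0.59 ± 0.48 in double positive and 0.62 ± 0.48 in single positive cells (adjusted p 0.823 and 0.839). Scaling to the 75th percentile turned both negative, to -1.07 and -0.62. All 7 of its probes were positive in double positive cells and 6 of 7 in single positive cells. PSMC1 had differences of 0.24 ± 0.66 in double positive and 0.05 ± 0.66 in single positive cells. Its second probe was negative in both, but was above background in no colostrum sample and only 1 blood sample.

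PSMD14, the deubiquitinase of the lid, was at 7.05 and 5.46 in colostrum double positive and 8.36 and 6.91 in colostrum single positive cells, against 7.30 and 7.10 in blood double positive and 7.70 and 7.64 in blood single positive cells. Its colostrum values, 5.46 to 8.36, enclosed the blood values. PSMD1, a scaffold of the base, ranged from 6.20 to 8.62 in colostrum samples and from 6.88 to 8.81 in blood samples. PSMD10, an assembly chaperone also called gankyrin, was above background in 2 colostrum samples and 1 blood sample.

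**Figure D2:**
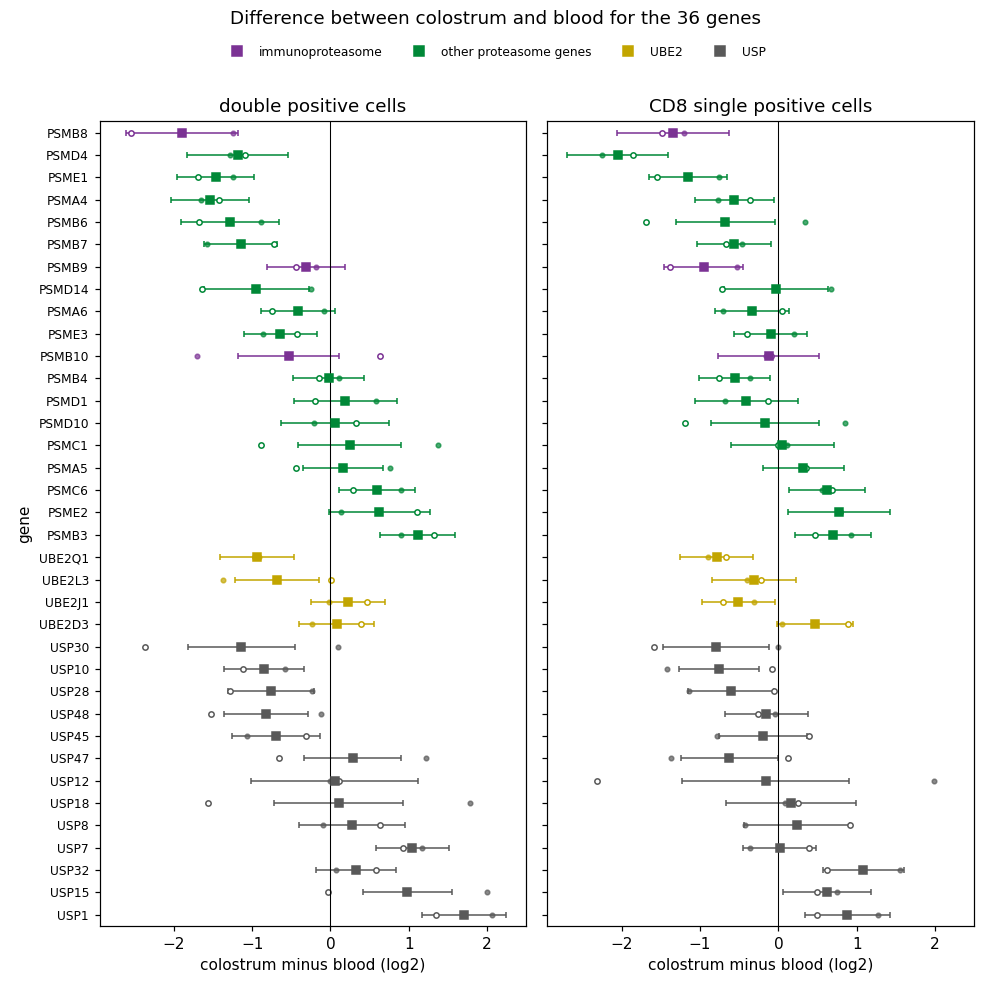
Difference of colostrum minus blood on the log2 scale (horizontal axes) for each of the 36 genes, in double positive cells (left) and single positive cells (right); squares are the limma estimates with their standard errors, and small filled and open circles the differences within sow 1 and sow 2. PSMB8, PSMD4, PSME1, PSMA4 and PSMB7 lie left of 0 in both sows and both populations, USP1 and PSMB3 right of it, and none of the 36 had an adjusted p under 0.05.

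The 4 E2 enzymes did not lie one way. UBE2Q1 was at 10.34 and 9.89 in colostrum double positive and 9.66 and 9.62 in colostrum single positive cells, against 11.26 and 10.85 in blood double positive and 10.57 and 10.29 in blood single positive cells. The sources overlapped by little, since 1 colostrum double positive value was just above the lowest blood single positive value. Its difference was -0.94 ± 0.47 in double positive and -0.79 ± 0.47 in single positive cells (adjusted p 0.64 and 0.774). Its 7 probes were all negative in double positive cells, and 4 of 7 were in single positive cells.

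UBE2D3 belongs to a family of E2 enzymes that work with many ligases. The array names its probe UBE2D2, and the probe's RefSeq accession gives UBE2D3; the genes of this family are near-identical, and their probes can share signal. The tested probe was at 12.93 and 13.48 in colostrum double positive and 13.05 and 13.44 in colostrum single positive cells, against 13.16 and 13.09 in blood double positive and 13.01 and 12.55 in blood single positive cells. These overlapped, with differences of 0.08 ± 0.48 in double positive and 0.47 ± 0.48 in single positive cells, the last of which was -1.32 under 75th percentile scaling. The other 2 probes were higher in every colostrum sample, with differences of 0.78 and 0.61 in double positive and 0.69 and 0.46 in single positive cells. UBE2L3, an E2 of the parkin and linear-chain ligases, had -0.68 ± 0.53 in double positive and -0.31 ± 0.53 in single positive cells. UBE2J1, an E2 of the endoplasmic reticulum, had 0.22 ± 0.47 and -0.51 ± 0.47.

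**Figure D3:**
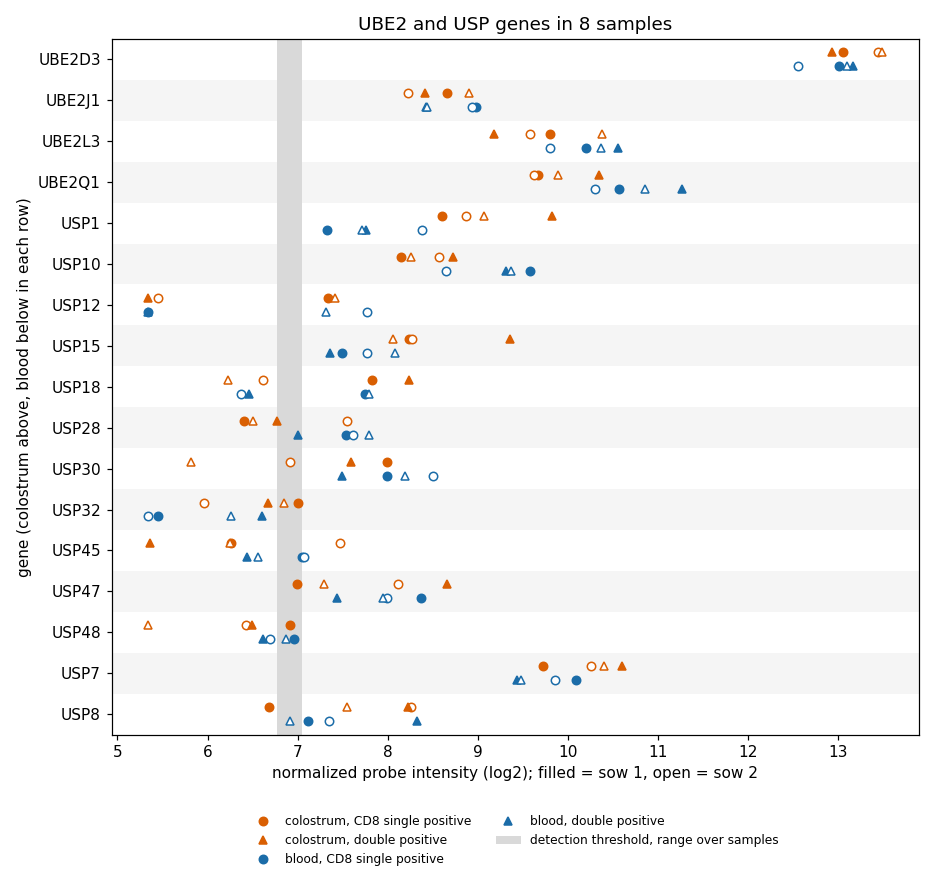
Normalized log2 intensity (horizontal axis) of the 4 UBE2 and 13 USP genes in each of the 8 samples, colostrum in orange in the upper line of each row and blood in blue in the lower line; triangles are double positive and circles single positive cells, filled for sow 1 and open for sow 2, and the grey band is the range of the detection threshold over samples. USP1 is higher in the 4 colostrum samples (8.60 to 9.82) than in the 4 blood samples (7.33 to 8.38), and several USP genes lie at or under the band.

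Among the 13 USP genes, 8 had a positive difference in double positive cells (45.1% of all genes did) and 6 in single positive cells (46.5% of all genes), and the median difference was 0.11 and -0.15. USP1, which removes ubiquitin from the DNA repair proteins FANCD2 and PCNA, was at 9.82 and 9.06 in colostrum double positive and 8.60 and 8.87 in colostrum single positive cells. In blood it was at 7.75 and 7.72 in double positive and 7.33 and 8.38 in single positive cells. Each colostrum value was above each blood value, by at least 0.21. The difference was 1.71 ± 0.54 in double positive cells, 3.26-fold higher, and 0.88 ± 0.54 in single positive cells (adjusted p 0.447 and 0.786). The single positive value was 0.35 without the blood single positive sample of sow 1. USP1 has 1 probe.

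USP7, which acts on MDM2 and p53 and on FOXP3 in regulatory T cells, was at 10.60 and 10.40 in colostrum double positive and 9.72 and 10.25 in colostrum single positive cells, against 9.43 and 9.48 in blood double positive and 10.09 and 9.85 in blood single positive cells. In double positive cells both colostrum values were above both blood values, with a difference of 1.05 ± 0.46 (adjusted p 0.592), which was -0.58 under 75th percentile scaling. In single positive cells the values overlapped and the difference was 0.02 ± 0.46. Of its 4 probes, 3 were positive in each population. USP15 had differences of 0.98 ± 0.56 in double positive and 0.62 ± 0.56 in single positive cells, and its highest value, 9.36, was the colostrum double positive sample of sow 1.

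USP10 and USP28 were lower in colostrum in both sows and both populations without full separation. USP10 was at 8.73 and 8.25 in colostrum double positive and 8.15 and 8.56 in colostrum single positive cells, against 9.31 and 9.36 in blood double positive and 9.58 and 8.65 in blood single positive cells. Its difference was -0.85 ± 0.51 in double positive and -0.75 ± 0.51 in single positive cells (adjusted p 0.725 and 0.809). USP28 was not above background in the colostrum double positive cells and was at least 1.39-fold lower there (adjusted p 0.81). USP30, a deubiquitinase of the mitochondrial outer membrane, had differences of 0.09 and -2.37 in the double positive cells of sows 1 and 2. In single positive cells they were close to 0 in sow 1 and -1.59 in sow 2.

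Several USP genes varied between samples as much as between groups. USP18, which takes the ubiquitin-like protein ISG15 off its targets, was at 8.24 and 6.23 in colostrum double positive and 7.83 and 6.61 in colostrum single positive cells, against 6.46 and 7.79 in blood double positive and 7.74 and 6.37 in blood single positive cells. It was above background in 2 colostrum and 2 blood samples. USP12 was at the floor of the scale in 3 samples and between 7.31 and 7.77 in 4 others. USP32, USP45 and USP48 were above background in 1, 3 and 2 of the 8 samples. USP8 and USP47 had overlapping sources, with differences of 0.27 ± 0.68 and 0.28 ± 0.62 in double positive cells and 0.24 ± 0.68 and -0.63 ± 0.62 in single positive cells.

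Because 26 of the 36 genes had several probes, the other probes were set beside the tested one, a comparison added after the data were seen. In double positive cells 38 of 44 other probes pointed the same way as the tested one, counting probes that exceeded background in both samples of either group, and in single positive cells 34 of 44 did. Probes of a gene read the same samples in the same dyes, so they check the probe and not the sample. The genes whose every probe was negative in both populations were PSMB4, PSMB7, PSMB8, PSMB9, PSME1, USP10 and USP30 among those with several probes. Those whose every probe was positive in both were UBE2D3 and USP18. The second probe of USP10 was above background in 1 blood sample only, and that of USP18 in 1 colostrum sample only.

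**Figure D4:**
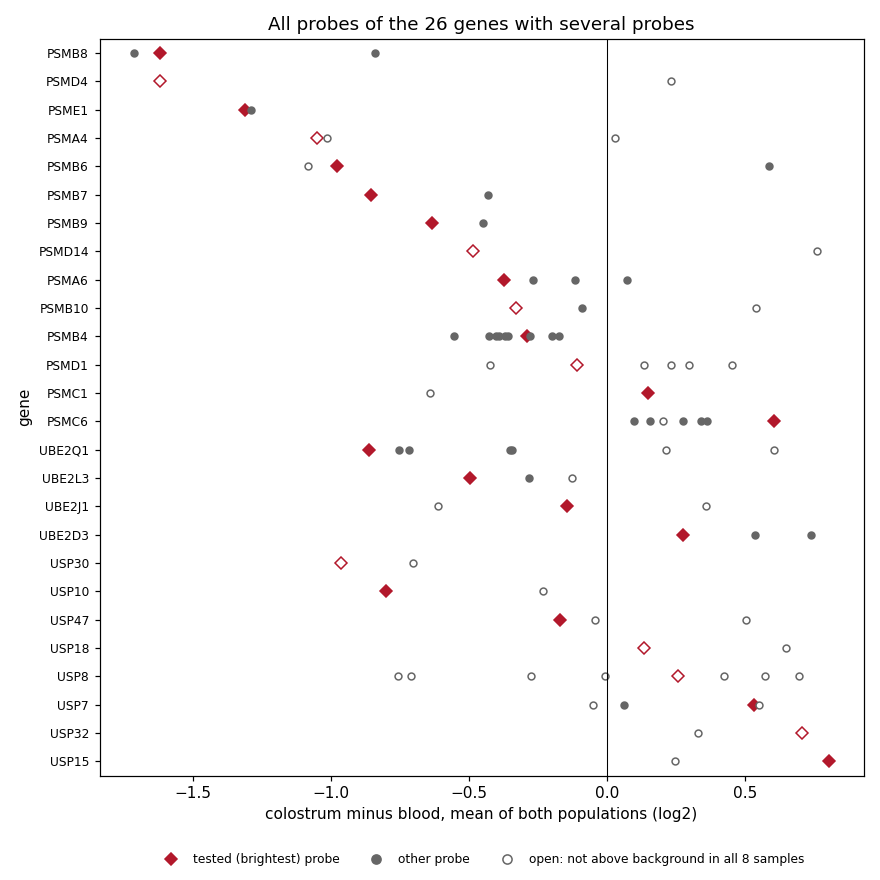
Difference of colostrum minus blood averaged over both populations, on the log2 scale (horizontal axis), for every probe of the 26 genes with several probes; red diamonds are the tested probes, grey circles the other probes, and open symbols probes not above background in all 8 samples. All probes of PSMB8, PSME1, PSMB7, PSMB9 and PSMB4 lie left of 0, all probes of PSMC6 and UBE2D3 right of it, and those of PSMD4 and PSMB6 on both sides.

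Averaging both populations gave the comparison its largest number of samples, 4 against 4, and was also added after the data were seen. Again 0 of the 36 genes passed (background 0%), while 8 had an unadjusted p under 0.05, against 12.8% of all genes. PSME1 averaged 9.98 ± 0.37 in colostrum and 11.29 ± 0.23 in blood (SD, n = 4 samples of 2 sows), a difference of -1.31 ± 0.35 with an adjusted p of 0.171 in limma. Under the other processing settings and with single samples left out, that adjusted p ranged from 0.00544 to 0.385. PSMD4 followed with -1.62 ± 0.46 (0.19), USP1 with 1.29 ± 0.38 (0.206), PSMB8 with -1.62 ± 0.51 (0.225) and PSMA4 with -1.05 ± 0.35 (0.247), all adjusted p in parentheses. PSMD4 was above background in 1 of the 4 colostrum samples and PSMA4 in 2, so both differences are limited by background. The second probe of PSMD4 gave 0.23 here, and the other 2 of PSMA4 gave -1.02 and 0.03. Scaling each channel to its 75th percentile in place of quantile normalization called 15 of the 36 genes here and 796 of all 3736 genes tested. Under that scaling the 920 genes brighter than 8.15 had a median of -1.51 in this comparison, against -0.11 with quantile normalization.

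None of the 36 genes passed the test of whether colostrum against blood differed between the populations (0 of 36 at an adjusted p under 0.05, background 0%; 0 of 36 at an unadjusted p under 0.05, against 2.31% of all genes). A dye effect shared by both populations cancels here. USP7 had the smallest p of the 36, with a difference of double positive minus single positive of 1.03 ± 0.66 and an adjusted p of 0.997. PSMA4 had -0.98 ± 0.71 and USP1 0.82 ± 0.76.

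Within one source both populations carry the same dye. In colostrum, double positive against single positive cells gave 0 of 36 genes at an adjusted p under 0.05 (background 0%) and 1 at an unadjusted p under 0.05, against 7.13% of all genes. That gene was PSMD1, at 8.17 and 8.62 in colostrum double positive and 6.20 and 7.62 in colostrum single positive cells, with a difference of 1.49 ± 0.66 and an adjusted p of 0.684. PSMD14 lay the other way, at -1.39 ± 0.67 (adjusted p 0.701), lower in double positive cells in both sows. PSMB4 was at 11.63 and 11.58 in colostrum double positive and 11.05 and 10.65 in colostrum single positive cells, a difference of 0.76 ± 0.45 (adjusted p 0.803).

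In blood, 0 of 36 genes passed between the populations (background 0%), and 0 had an unadjusted p under 0.05, against 5.25% of all genes. PSMD1 was again higher in double positive cells in both sows, at 7.60 and 8.81, against 6.88 and 7.75 in single positive cells, with a difference of 0.89 ± 0.66 (adjusted p 0.971). UBE2Q1 had 0.62 ± 0.47 and UBE2J1 -0.53 ± 0.47. PSMB8, PSMB9 and PSMB10 had 0.36, -0.22 and -0.22, each smaller than its standard error of 0.72, 0.50 and 0.65.

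Other genes of the pathway came from a list of 87, of which 27 were measured. In double and in single positive cells 0 of the 27 passed in either direction (background 0% of 3773 genes). UBA3, the catalytic subunit of the E1 enzyme for NEDD8, was at 7.28 and 7.40 in colostrum double positive and 6.71 and 6.48 in colostrum single positive cells, against 8.36 and 8.34 in blood double positive and 8.36 and 8.27 in blood single positive cells. All 4 colostrum values were below the blood values. It differed by -1.01 ± 0.45 in double positive cells and was at least 2.80-fold lower in single positive cells (adjusted p 0.592 and 0.52). UBA1, the main E1 enzyme for ubiquitin, had -0.02 ± 0.48 and 0.20 ± 0.48, and the ubiquitin gene UBB -0.33 ± 0.48 and 0.07 ± 0.48.

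ISG15, a ubiquitin-like protein induced by interferon, lay higher in colostrum, at 13.74 and 13.48 in double positive and 13.74 and 12.18 in single positive cells, against 12.58 and 11.71 in blood double positive and 11.92 and 10.83 in blood single positive cells. Its difference was 1.46 ± 0.66 in double positive and 1.58 ± 0.66 in single positive cells (adjusted p 0.603 and 0.608). Scaling to the 75th percentile turned both negative, to -0.58 and -0.10. Among the genes that load peptides on MHC class I, TAP1, a peptide transporter subunit whose gene lies between PSMB8 and PSMB9, was at 6.93 and 6.11 in colostrum double positive and 5.47 and 6.46 in colostrum single positive cells, against 9.03 and 7.83 in blood double positive and 6.32 and 8.12 in blood single positive cells. TAP1 had a difference of -1.91 ± 0.73 in double positive cells (adjusted p 0.518). In single positive cells no colostrum value was above background, and the blood value of sow 1 was under its threshold of 6.81. The comparison there rests on the blood sample of sow 2, so no fold is given (adjusted p 0.77). B2M, the MHC class I light chain, had 0.22 ± 0.47 and 0.12 ± 0.47, and the class I heavy chain SLA-3 had -0.44 ± 0.45 and 0.01 ± 0.45.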

How the data were processed

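Per the labels' protocols, total RNA of sorted T cells was amplified as cDNA and hybridised with 1 dye for each source of cells. The authors' deposited file of each sample holds 1 intensity per spot (45220 spots, some below 0). Not given in the sources used here were scanner, image software, background correction, genome build and any sharing of arrays. The log2 values of the authors' deposited series matrix were used to choose each gene's brightest probe and as an alternative, and 79.0% of its values lay within 0.01 of the log2 of quantile-normalized intensities. After averaging spots of a probe, quantile normalization was run across the 8 samples (43603 probes), and values under 40.6 units (5.34 on the log2 scale, from the negative-control spots) were set to that floor, where 6 values of the 36 genes lay. Probes with a mean under the 30th percentile (5.89) were left out. The platform annotation names 1 gene for 10278 probes and none for 33325. RefSeq accessions (Sscrofa11.1) changed 443 symbols, 1 of them a UBE2 gene. The tested probe matched such an accession for 20 of the 36 genes, and the others, USP1 and PSMA4 among them, keep the array's symbol unchecked.

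limma 3.58.1 (R 4.3.3) was fitted to 3773 genes with 4 group means and no block (4 residual and 5.40 prior degrees of freedom), with Benjamini-Hochberg adjustment over all of them, and was tested on simulated data. A fold given as "at least" sets the brighter group's mean against the mean, per array of the dimmer group, of its own value or, if higher, the detection threshold. Equal sample numbers mark the same sow, so they pair the samples; deviations of same-numbered samples correlated at -0.01 to 0.29. The genes and lists were chosen with earlier results of these data known. Genes named are those called, up to 10 per direction in each comparison of colostrum with blood and 4 in the others with the same sign in both sows and above background in a group, and the immunoproteasome, its counterparts and the activators. Other genes are named as members of the family. Alternatives were other scaling, background, floor, filter and probe rules, a fixed sow block, a random block of sow and population, and single samples left out.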

Additional observations from a re-analysis of the deposited data

How the results depend on the processing

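Of 1348 values for single genes under alternative settings, 1313 kept their direction and their side of the threshold, 23 changed direction, 12 newly passed and 0 lost a call, since there was none to lose; the causes were not tested. Scaling to the 75th percentile moved most. In double positive cells it called 6 of the 36 genes (PSMA6, PSMB4, PSMB7, PSMB8, PSME1 and UBE2Q1) and 280 of all 3736 genes tested. In single positive cells it called 2 genes in all, and in the mean of both populations 15 of the 36 and 796 in all. Under this scaling 20 of the 36 genes were lower in every colostrum sample (21.6% of all genes) and 1 was higher (4.76%). That gene was USP32, and PSMB3 and USP1 were no longer apart in every sample. The same scaling turned PSMC6 (-0.62), UBE2D3 (-1.32), PSMA5 (-0.41) and ISG15 (-0.10) in single positive cells and USP7 (-0.58), PSME2 (-0.34), PSMC6 (-1.07) and ISG15 (-0.58) in double positive cells. Normexp background correction called 4 genes in all in single positive cells, and 4 and 3 between populations in colostrum and in blood. In the mean of both populations it called 83 of 3766 genes, with PSME1 as 1 of the 36 (adjusted p 0.0349 in limma). A floor at the 95th percentile of the negative controls called 10 genes in all in double and 5 in single positive cells, 2 in colostrum, 3 in blood and 59 in the mean, and UBA3 passed in single positive cells (adjusted p 0.023, range over alternatives 0.023 to 0.964). Keeping only probes above the negative controls called 2, 1 and 56 in the last 3 of these. Cyclic loess gave PSME3 0.11 in single positive cells and moved the median over all genes to -0.21 in double positive cells and -0.20 in the mean of both populations, beside -0.09 and -0.07 in the reported setting. The mean of all probes turned PSMB10 (0.22) and UBE2Q1 (0.00074) in single positive cells, the population difference of UBE2J1 (-0.29) and PSMA4 (0.020), PSMA4 within colostrum (0.11), and UBE2L3 (-0.37), UBE2J1 (0.22) and USP7 (0.14) within blood. With the mean of all probes PSMA4 and PSMD4 were no longer lower in every colostrum sample. PSMB4 joined the genes lower there, and UBE2D3 those higher. PSMA4 was not lower in every colostrum sample under cyclic loess either.

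A fixed block for the sow called none of the 36 genes in any comparison (0). A random block that joined the colostrum and blood samples of 1 sow and 1 population also called none of them (0). This random block called 3 genes in all in single positive cells, 1 within colostrum and 19 in the mean. Leaving out single samples called 0 of the 36 genes each time, and 0 to 1 genes in all in single positive cells and in the mean; the 36 held 6 to 10 genes lower (7.47% to 8.88% of all genes) and 2 to 4 higher (4.16% to 5.25%) in every colostrum sample, with 10 and 4 without the colostrum single positive sample of sow 1 and 4 higher without the blood double positive sample of sow 2. Directions turned when 1 sample was left out for PSMB6 (-1.40 to 0.044) and PSME3 (-0.33 to 0.14) in single positive cells, PSMB10 (-1.53 to 0.46) and PSME2 (-0.12 to 1.37) in double positive cells, the population difference of PSMB8 (-1.63 to 0.53) and USP30 within colostrum (-1.64 to 0.14). Signal over background limits the 14 genes not above background in every sample.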

Other observations

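Among deubiquitinases outside the USP family, 4 of 16 listed genes were measured: UCHL3, COPS5, ATXN3 and OTUB1. All 4 had a negative difference of colostrum minus blood in double positive cells, where 54.9% of all genes did. In single positive cells all 4 had a positive difference, where 46.5% of all genes did. In both sows, 4 were lower in double positive cells (32.0% of all genes), but only 2 were higher in single positive cells (24.8%). Of the 4, 0 passed the test in either population (background 0% of 3773 genes). In double positive cells 2 of the 4 were above background in both samples of a group, and in single positive cells 3 were. UCHL3, a ubiquitin C-terminal hydrolase, was at 6.82 and 6.74 in colostrum double positive and 7.73 and 8.07 in colostrum single positive cells, against 7.94 and 8.16 in blood double positive and 7.32 and 5.34 in blood single positive cells, the last at the floor of the scale. The 2 colostrum double positive values were not above background. The difference between the populations, double positive minus single positive, was -2.84 ± 0.91, with an adjusted p of 0.997 in limma. COPS5, the catalytic subunit of the COP9 signalosome, had -0.24 ± 0.51 in double positive and 0.97 ± 0.51 in single positive cells, and a difference between them of -1.21 ± 0.72 with the same adjusted p. ATXN3 was above background in 3 of the 8 samples and OTUB1 in 2, and their lowest values were 5.41 and 5.37.

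Of 7 measured ubiquitin ligases known in T cells (CBL, FBXW7, MDM2, PELI1, RNF4, TRAF6 and XIAP), 0 passed in either population (background 0% of 3773 genes). PELI1 was at least 1.96-fold lower in colostrum double positive cells, at 6.35 and 6.93, against 8.44 and 7.36 in blood double positive cells (adjusted p 0.659).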
